A study of Rattus norvegicus with 18 samples.

Results

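The femurs of older rats after fracture were compared with those of young rats at the same times after fracture. The comparison rests on 5 arrays of older rats and 5 arrays of young rats, 10 of the 18 arrays of the series, chosen by the age and time that the labels give. The rats were female Sprague-Dawley, an outbred stock, and were 6 weeks (young), 26 weeks (adult), or 52 weeks (older) of age at fracture. The left femur was broken closed across the middle of its shaft and held by a rod in the marrow cavity. Each age had 6 arrays, of intact bone and of bone harvested 3 days or 1, 2, 4, or 6 weeks after fracture. Each array held RNA pooled from 2 rats, taken from the third of the femur around the fracture with callus, cortical bone, and marrow. The 5 times therefore served as the replicates of an age (n = 5 arrays). The adult arrays entered the fits as well, for the spread and the time effects. A p-value sets the age difference against the unevenness of age differences over these times, adult rats included. It does not measure the spread between rats of a single time.

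A fractured long bone first fills with clotted blood and fibrous tissue. Stem cells of the periosteum then form cartilage in the gap, and the cartilage is mineralized, resorbed, and replaced by bone. Marrow and muscle around the break are injured as well. Healing is known to be slower in older animals. Such a segment is a mixture of tissues, and in bulk RNA fewer cells of a type and less RNA per cell cannot be told apart.

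Signals are in arbitrary intensity units after the authors' scaling. The median signal of an array was 147.2 to 155.3 in young and 143.7 to 182.6 in older rats after fracture. The bone genes Ibsp (bone sialoprotein, 1877 to 5689.4) and Col1a1 (20416.7 to 34115.8) were bright on all 10 arrays, as was the muscle enzyme Ckm, although muscle is not named among the harvested tissues. Signals of bacterial spike-in RNA differed between ages. The BioC 5' probe set read 690 to 1262 on the older arrays and 1181 to 2035 on the young ones, and was lower in the older array at each time. Degraded RNA lowers the Gapdh signal at the 5' end relative to the 3' end. That ratio was 0.814 to 0.873 in older and 0.257 to 0.802 in young rats after fracture, so it was higher in older rats at each time and the ages did not overlap. The 0.257 was that of young rats at 6 weeks, and the other young arrays had 0.731 or more. The BioC signal and the Gapdh ratio thus moved with age in every comparison of ages after fracture below. In intact bone the Gapdh ratio had the opposite order, at 0.913 in young and 0.757 in older rats. The intact BioC signals were close, at 1428 and 1397. The part of these measures in the results was not tested. Counts that changed by over 1.5 times without the young 6 weeks array are given without it too.

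Over all 5 times, few probe sets passed the test. Of 4669 probe sets bright enough to be tested, 4 were higher in older rats (0.0857%) and 3 were lower (0.0643%) at a Benjamini-Hochberg adjusted p below 0.05 (limma, with time as a term). At an unadjusted p below 0.05 there were 971, of which 554 were higher (11.9%) and 417 were lower (8.93%). The median log2 difference over all probe sets was 0.04, and 627 probe sets (13.4%) had the same sign at all 5 times. The 5 older arrays lay wholly above the 5 young arrays for 49 probe sets (1.05%) and wholly below them for 35 (0.75%).

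Myh2, a fast myosin heavy chain of skeletal muscle, was lower in older rats at every time. In young rats its signals were 1020, 6800, 4809, 7129, and 7265 at 3 days and 1, 2, 4, and 6 weeks, and in older rats they were 548, 1431, 2195, 1874, and 2646. The groups overlapped because the young 3 days array was far below the other young arrays. By mean log2 signal Myh2 was 2.89-fold lower (log2 -1.53 ± 0.25 SE, adjusted p = 0.0374). The intact bones stood in the same order, at 8906 in the young and 2722 in the older rats.

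Pmepa1, which is induced by TGF-beta and restrains its signal, was higher in older rats at every time. Young rats had 8371, 9350, 6301, 3307, and 3081, and older rats had 9868, 13997, 12210, 7103, and 8203. The 2 courses were close at 3 days and stood furthest apart at 6 weeks. The difference was 1.81-fold (log2 0.86 ± 0.15, adjusted p = 0.0387). Without fracture the order was opposite, with 3106 in the young and 783 in the older rats.

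Cdkn1a, the cell cycle inhibitor p21, was also higher at every time. The young arrays read 328, 214, 132, 41.1, and 59.6 and the older arrays 777, 537, 306, 322, and 130. Both courses came down over the 6 weeks, and the older rats stayed above the young throughout. The difference was at least 2.25-fold (log2 1.17 ± 0.20, adjusted p = 0.0374), with 2 young arrays below the floor of 100 that was set under the signals. A different probe set of the same gene gave 1.34 ± 0.27, which did not pass (adjusted p = 0.0523).

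Myh2 and Pmepa1 met the rule for naming genes. Cdkn1a and the other 4 probe sets fell outside it, as too dim or without a symbol, and are named with their values known. Alas1, the first enzyme of heme synthesis in most tissues, read 187, 535, 411, 534, and 369 in young and 128, 137, 122, 199, and 228 in older rats (log2 -1.28 ± 0.22, adjusted p = 0.0374). Itgb4, the beta 4 integrin chain that anchors cells to the basement membrane, read 72.3, 90.5, 110, 35.5, and 182 in young and 158, 279, 240, 244, and 460 in older rats (log2 1.18 ± 0.19, adjusted p = 0.0374). Its 3 lowest young signals lay below the floor. The probe sets U67911_s_at (log2 -1.65 ± 0.27) and M24067_at (log2 1.45 ± 0.25) have no gene symbol here, and both had an adjusted p of 0.0374. All 7 differences had the same sign at all 5 times, and none of the 7 had groups without overlap.

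**Figure D1:**
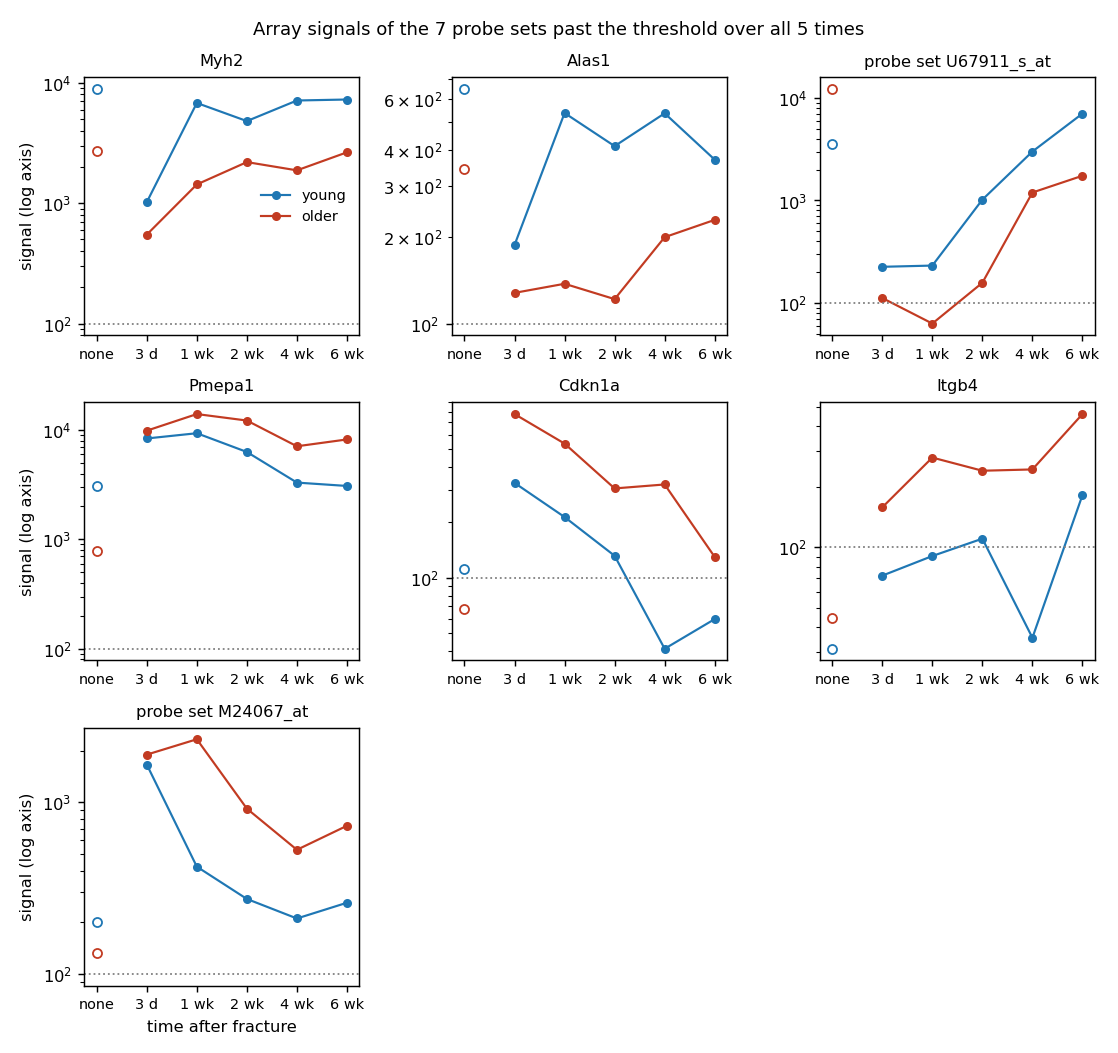
Array signal (log axis) against time after fracture for the 7 probe sets that passed the test over all 5 times, with 1 array per point, young rats in blue, older rats in red, open circles for intact bone, and a dotted line at the floor of 100. At each time the older point lies below the young point for Myh2, Alas1, and U67911_s_at and above it for Pmepa1, Cdkn1a, Itgb4, and M24067_at.

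These calls depended on single arrays and times and on the adult arrays in the fit. With only the young and older arrays 0 probe sets passed. Without the young 6 weeks array 0 probe sets passed, and 0 passed without the older 2 weeks or the older 4 weeks array. Without all arrays of 1 week, adult ones included, 4 passed, with 0 of the 7 above among them. Without those of 2 weeks 1 passed, which was among the 7, and without those of 4 or of 6 weeks 0 did. Without the 3 days arrays 424 passed, 211 higher (4.52%) and 213 lower (4.56%), all 7 above among them. At an unadjusted p below 0.05 there were 693 higher (14.8%) and 532 lower (11.4%) at these 4 times. The even split of the 424 was not kept everywhere, with 155 higher and 233 lower under equal array medians, 96 and 131 with only the young and older arrays, and 29 and 69 without the time term. The difference at 1 to 6 weeks was not shown to depart from that at 3 days. A test of that departure called 0 of 4669 probe sets (0%), with a lowest adjusted p of 0.0626, 416 at an unadjusted p below 0.05, and 0 to 10 calls when 1 array was left out.

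The 4 later times are described beside all 5, and they were singled out after these counts had been seen. The 424 probe sets went down to 50 without the arrays of 4 weeks, to 149 without those of 6 weeks, and to 168 without those of 1 week. Leaving out single arrays gave 136 (older 6 weeks), 193 (older 4 weeks), 203 (young 4 weeks), 222 (older 1 week), and 230 (older 2 weeks), and 301 without the young 6 weeks array. Genes called "lower" or "higher at 1 to 6 weeks" below passed the test at these 4 times, with n = 4 arrays per age. The adult arrays of these times entered the fit for the spread and the time effects. With only the young and older arrays 227 passed, 225 of them among the 424, so many genes called below did not pass there. Of the 424, 358 had a single symbol and stood for 298 genes, and 177 had the opposite order in intact bone. The counts of each list below stand beside 4.52% higher and 4.56% lower over all probe sets at these times.

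Genes of mature skeletal muscle were lower in older rats at 1 to 6 weeks. Of 40 tested, 27 were lower and 0 were higher, with a median log2 difference of -1.01 against 0.06 over all probe sets. Over all 5 times the median was -0.83, 29 were lower at an unadjusted p below 0.05, and 17 were lower at every time (42.5%, against 6.00% of all probe sets). The median difference was 0.02 at 3 days, -1.41 at 1 week, -0.46 at 2 weeks, -1.16 at 4 weeks, and -0.75 at 6 weeks. In intact bone it was -1.41. The summed signal of the 40 genes was 264608 to 357358 in young and 125911 to 201376 in older rats at 1 to 6 weeks, so these sums did not overlap. At 3 days the sums were 112752 and 119822, the lowest of either age. Whether less muscle was harvested with the bone of older rats cannot be told apart from less muscle RNA per fiber.

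Genes of developing and denervated muscle did not share that direction. Of 15 tested, 3 were higher at 1 to 6 weeks and 0 were lower, with medians of -0.11, 0.59, 0.65, -0.01, and 0.00 over the 5 times. Their summed signal was 31727 in young and 52245 in older rats at 1 week, 15856 and 29319 at 2 weeks, 17722 and 12479 at 4 weeks, and 15081 and 13146 at 6 weeks, so older rats had the higher sums only at 1 and 2 weeks. Myl4, the embryonic and atrial myosin light chain, read 829.4, 178, 103, 79.7, and 25.7 in young and 78.0, 2089, 710, 170, and 27.6 in older rats (log2 1.78 ± 0.49 at 1 to 6 weeks, adjusted p = 0.0423). The order was opposite at 3 days, and 2 young signals and 1 older signal of the later times lay below the floor. The adhesion molecule Ncam1 (log2 0.76 ± 0.18) and the acetylcholine receptor subunit Chrna1 were the others. The number of higher genes was 0 without the arrays of 1, 2, or 4 weeks or without the older 2 or 4 weeks array, and 1 without the young 1 or 2 weeks or the older 1 or 6 weeks array.

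Ckmt2, the mitochondrial creatine kinase of muscle, read 730, 3643, 2777, 5312, and 5300 in young and 584, 415, 956, 1549, and 1639 in older rats. The 5 older signals lay below the 4 later young signals. It was 4.10-fold lower at 1 to 6 weeks (log2 -2.04 ± 0.33, adjusted p = 0.0058). Pvalb, the calcium buffer of fast fibers, read 631, 13302, 9153, 12355, and 7913 in young and 398, 807, 3806, 4071, and 5192 in older rats (log2 -1.88 ± 0.42 at 1 to 6 weeks, adjusted p = 0.0174). Eno3, the muscle enolase, read 525, 4824, 5335, 7267, and 4911 in young and 622, 1062, 1822, 1701, and 2178 in older rats (log2 -1.75 ± 0.24, adjusted p = 0.00279). In each of these genes the 3 days arrays of both ages lay low and close together. The fast myosin Myh4 (log2 -0.68 ± 0.14) and the muscle creatine kinase Ckm (log2 -0.83 ± 0.14) differed less. The slow myosin Myh7 had a log2 difference of -0.71, as large as that of Myh4, and the skeletal actin Acta1 one of -0.42, and neither passed. The number of lower genes was 5 without the arrays of 4 weeks, 15 to 34 with single arrays left out, and 25 without the young 6 weeks array.

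Short stretches before the start of 4 muscle genes are printed for motifs that some members of this list hold there. Of the 40 genes, 33 had an entry in the RefSeq table of promoters (build GRCr8), 34 entries in all, and 250 bases before each start were searched. The motif CAGCTG, an E-box that myogenic factors are known to bind and that reads the same on both strands, was in 15 of 34 (44.1%), against 12% of all 33469 promoters. Of the 25 entries of genes that were lower at 1 to 6 weeks, 12 held it (48%). The motif TATAAA, read on the strand of the gene and not overlapping the first, was in 10 of 34 (29.4%), against 8.06% of all. The list was chosen as muscle genes, so these shares describe muscle promoters and not the age difference. A match is not a binding site. The capitals mark the motif, and each stretch runs 5' to 3' on the strand of the gene.
Ckmt2 (chr2:24845607-24845636, minus strand): ccttcaaggacaCAGCTGggggagcctgtg
Scn4a (chr10:91796375-91796404, minus strand): catcagcggcagCAGCTGtccttgccggcc
Pygm (chr1:213119761-213119790, plus strand): taaatcccctcaCAGCTGgggggcagctcc
Myh2 (chr10:52355697-52355726, plus strand): catagctagccaTATAAAagagttccgaac
In Myh2, whose signals are given above, the printed TATAAA starts 30 bases before the start site. In Ckmt2, the muscle sodium channel Scn4a (log2 -1.33 at 1 to 6 weeks), and the muscle glycogen phosphorylase Pygm (log2 -1.30), the printed CAGCTG starts 113, 68, and 32 bases before it.

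Genes of oxidative phosphorylation, whose products pass electrons to oxygen and make ATP in mitochondria, were lower in older rats at 1 to 6 weeks as well. Of 52 tested, 32 were lower at 1 to 6 weeks and 0 were higher, with a median of -0.71. Over all 5 times the median was -0.56, 39 were lower at an unadjusted p below 0.05, and 18 were lower at every time (34.6%). The 5 older arrays lay below all 5 young arrays for 5 of the 52, against 0.75% of all probe sets. Cox8b and Cox6a2 are also in the muscle list. Ndufa5 of complex I read 1635, 2568, 1840, 2791, and 2501 in young and 1634, 933, 1224, 1029, and 1095 in older rats. Its signals were the same at 3 days and apart at the other times (log2 -1.17 ± 0.19 at 1 to 6 weeks, adjusted p = 0.0058). Cyc1 (log2 -0.96) and Uqcrfs1 (log2 -1.10) of complex III and the ATP synthase subunit Atp5po (log2 -0.94) were also lower. The muscle forms Cox8b (log2 -1.22 ± 0.25) and Cox6a2 (log2 -1.10 ± 0.20) of complex IV differed most among that complex's tested genes. The non-muscle forms Cox8a (log2 0.02) and Cox6a1 (log2 -0.14) did not pass. The median of the list followed that of muscle over time, at 0.02, -1.04, -0.38, -0.79, and -0.74, and was -1.13 in intact bone. Without the arrays of 4 weeks 1 gene was lower, without those of 1 week 6 were, and with single arrays left out 11 to 32 were.

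For the citric acid cycle and fatty acid oxidation, 13 of 44 genes were lower at 1 to 6 weeks and 0 were higher, with a median of -0.46 (-0.37 over all 5 times). Fabp3, a fatty acid carrier of muscle and heart, read 1235, 4704, 2113, 4350, and 3310 in young and 734, 962, 1094, 1237, and 1473 in older rats. It was lower at every time (log2 -1.56 ± 0.33 at 1 to 6 weeks, adjusted p = 0.0143). Acadm, which starts the oxidation of medium-chain fatty acids, read 497, 2458, 1435, 2003, and 2124 in young and 777, 531, 819, 900, and 706 in older rats. Its order was turned at 3 days (log2 -1.44 ± 0.27, adjusted p = 0.00976). The muscle form Cpt1b of the carnitine shuttle was lower (log2 -0.97), and the liver form Cpt1a had a log2 difference of 0.24 that did not pass. The number of lower genes was 0 without the arrays of 4 weeks, 2 without those of 6 weeks, and 1 to 16 with single arrays left out.

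Of 25 genes of glycolysis and glucose handling, 6 of which are also in the muscle list, 9 were lower and 1 was higher at 1 to 6 weeks, with a median of -0.52 (-0.42 over all 5 times). The muscle forms Eno3, Pygm, Pfkm (log2 -1.21), and Pgam2 (log2 -1.08), the insulin-regulated glucose transporter Slc2a4 (log2 -1.33 ± 0.27), and Fbp2 (log2 -1.47 ± 0.28) were lower. The general forms Eno1 (log2 0.12), Pfkp (log2 0.25), and Pgam1 (log2 0.28) did not pass. The glucose transporter of most other cells, Slc2a1, was the 1 gene that was higher (log2 0.99). With the arrays of 4 weeks left out 1 gene was lower and 0 were higher, and with single arrays left out 6 to 10 were lower.

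**Figure D2:**
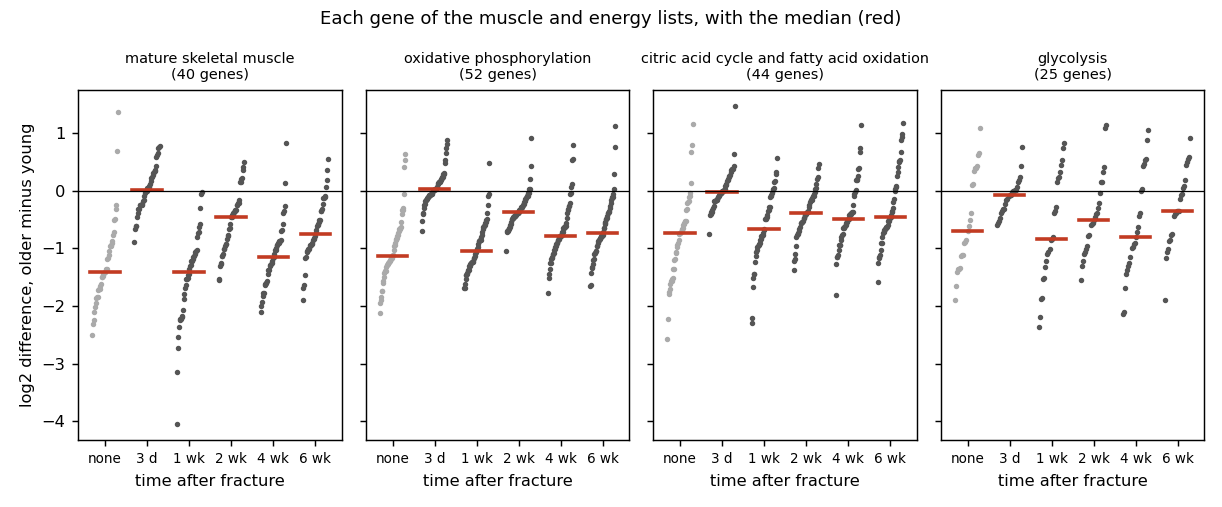
Log2 difference of older minus young rats for every tested gene of 4 lists (points, sorted within a column) at each time after fracture and in intact bone (none, light points), with the median as a red line. The medians lie near 0 at 3 days and below 0 at each later time and in intact bone.

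Genes of cartilage matrix stood higher in older rats, most at 4 and 6 weeks. Of 7 tested genes, 3 were higher at 1 to 6 weeks and 0 were lower, with a median of 1.64 (1.31 over all 5 times). The median difference was -0.03 at 3 days, 0.78 at 1 week, 0.08 at 2 weeks, 2.21 at 4 weeks, and 2.29 at 6 weeks, and -1.49 in intact bone. Comp, a cartilage oligomeric protein that binds collagen, read 384, 566, 1006, 150, and 140 in young and 541, 1957, 1541, 1156, and 1166 in older rats. It was higher at every time and was 4.29-fold higher at 1 to 6 weeks (log2 2.10 ± 0.33, adjusted p = 0.00501). Acan, the large proteoglycan of cartilage, read 1562, 996, 1240, 215, and 37.1 in young and 1311, 2372, 1702, 993, and 895 in older rats (log2 1.77 ± 0.35, adjusted p = 0.0114). Both genes were dimmest at 4 and 6 weeks in young rats, and there the older signals were furthest above them. Col10a1, the collagen of hypertrophic cartilage, read 92.8, 864, 5353, 55.1, and 46.2 in young and 5.4, 1010, 5676, 1557, and 488 in older rats. It did not pass (log2 1.64 ± 0.54, adjusted p = 0.0783). The number of higher genes was 0 without the arrays of 4 weeks, 2 without those of 6 weeks or of 1 week, and 3 to 5 with single arrays left out.

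The design also asks whether the age difference of late healing departed from that of early healing. A single probe set of 4669 passed (0.0214%), that of Col2a1, the main collagen of cartilage, and 460 had an unadjusted p below 0.05. Its signals were 689, 6591, 14462, 629, and 106 in young and 383, 11336, 12841, 7059, and 4870 in older rats. The mean difference was -0.08 over 3 days, 1 week, and 2 weeks and 4.50 over 4 and 6 weeks, a departure of 4.58 ± 0.62 on the log2 scale (adjusted p = 0.0393). At 4 and 6 weeks both older signals lay far above both young signals, and at 3 days, 1 week, and 2 weeks the order varied. The call was lost under quantile normalization and under equal array medians, where 0 probe sets passed, and it held in 7 of 19 alternatives. Over these the departure was 3.79 to 5.37 with an adjusted p of 0.0166 to 0.362. It was also lost without the young or older 3 days, the young 1 week, the young or older 6 weeks, or the older 2 weeks array. Over all 5 times together Col2a1 did not pass (log2 1.75 ± 0.70, adjusted p = 0.176).

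Of 22 tested genes of fibrous connective tissue, 11 were higher at 1 to 6 weeks and 0 were lower, with a median of 0.62 (0.45 over all 5 times). The median difference was -0.25 at 3 days and 0.45, 0.26, 0.57, and 1.01 at the later times. In intact bone it was -1.72. Lox, which cross-links collagen and elastin, read 4790, 1460, 1570, 400, and 181 in young and 3569, 4553, 2820, 1796, and 766 in older rats by 1 of its 4 probe sets. The older signals were higher at the 4 later times and lower at 3 days (log2 1.68 ± 0.21 at 1 to 6 weeks, adjusted p = 0.00279), and the other 3 probe sets passed too. Postn, periostin, read 7132, 4451, 2746, 2458, and 1534 in young and 5853, 8398, 7733, 3065, and 3959 in older rats (log2 1.02 ± 0.23, adjusted p = 0.019). Fibronectin, Fn1, was higher by all 4 of its probe sets, and that with the largest difference read 572, 416, 546, 213, and 169 in young and 386, 2026, 962, 817, and 1398 in older rats (log2 2.02 ± 0.38, adjusted p = 0.00976). Tnc, tenascin C (log2 0.95), Vcan, versican (log2 0.89), and the hydroxylase Plod1 (log2 1.01 ± 0.20) were also higher. The main fibrillar collagens did not pass, with Col1a1 at -0.28, Col1a2 at -0.22, and Col3a1 at 0.28 on the log2 scale. For Col1a2 and the elastin gene Eln, 2 of the 22, the 5 older arrays lay wholly below the 5 young arrays, against 0.75% of all probe sets. For 0 of the 22 they lay wholly above, against 1.05%. The number of higher genes was 0 without the arrays of 4 weeks, 2 without those of 1 week, 3 without those of 6 weeks, and 2 (without older 6 weeks) to 12 with single arrays left out.

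**Figure D3:**
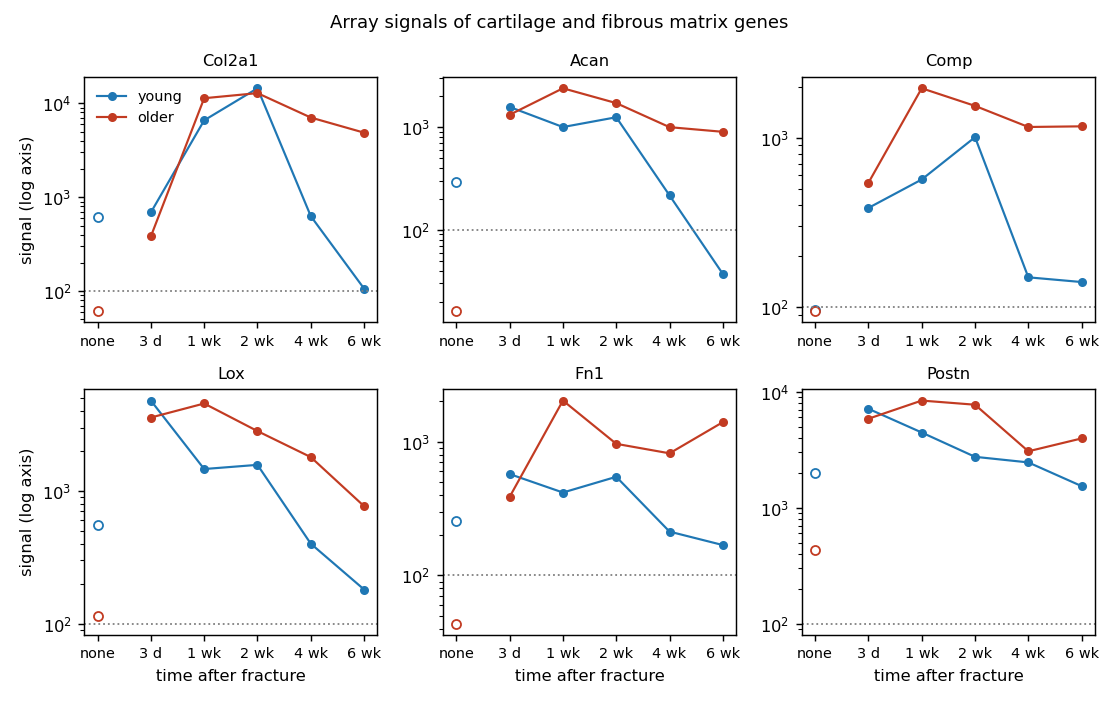
Array signal (log axis) against time after fracture for 3 cartilage genes and 3 genes of fibrous matrix, with 1 array per point, young rats in blue, older rats in red, open circles for intact bone, and a dotted line at the floor of 100. At 4 and 6 weeks the older point lies above the young point in all 6 genes, and at 3 days it lies above it in Comp but below it in the other 5.

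Of 11 osteoblast and bone matrix genes 0 passed at 1 to 6 weeks (limma), and the median was -0.07. At an unadjusted p below 0.05, 0 were higher and 1 was lower, against 14.8% and 11.4% of all probe sets. By adjusted p 1 was higher under quantile normalization, 1 was lower under equal array medians, and 1 was lower without the young 6 weeks array. Bglap, osteocalcin, read 7422, 17920, 19609, 16938, and 16026 in young and 2159, 4777, 7505, 14677, and 15834 in older rats. The older signals were lower up to 2 weeks and near the young ones at 4 and 6 weeks, and over all 5 times the difference did not pass (log2 -1.06 ± 0.25, adjusted p = 0.0602). Ctsk, the collagen-degrading protease of osteoclasts, read 7926, 13266, 17747, 12849, and 8821 in young and 1738, 5692, 15215, 12577, and 13488 in older rats. Acp5, the acid phosphatase of osteoclasts, read 2343, 8414, 11167, 6703, and 4010 in young and 304, 1981, 11902, 11000, and 9251 in older rats. Both were lower in older rats at 3 days and 1 week and higher at 6 weeks, and neither passed (log2 -0.61 ± 0.30 and -0.60 ± 0.47 over all 5 times). The 3 tested osteoclast genes had a median of -2.95 at 3 days, -1.79 at 1 week, 0.09 at 2 weeks, 0.71 at 4 weeks, and 1.21 at 6 weeks.

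Matrix proteases and their inhibitors were higher for 7 of 28 genes at 1 to 6 weeks and lower for 0, with a median of 0.45. Mmp3, stromelysin, read 181, 108, 113, 120, and 112 in young and 265, 146, 283, 564, and 817 in older rats. The young signals stayed near the floor of 100 and the older ones were highest at 4 and 6 weeks (log2 1.72 ± 0.36, adjusted p = 0.0141). Mmp14, a membrane collagenase, read 6279, 6473, 5366, 1528, and 747 in young and 3627, 7472, 6928, 4300, and 3178 in older rats (log2 1.04 ± 0.27, adjusted p = 0.0327). Mmp2, the gelatinase that Mmp14 is known to activate, read 4032, 3809, 3867, 2769, and 1737 in young and 4009, 8893, 6409, 3402, and 4742 in older rats (log2 0.92 ± 0.18, adjusted p = 0.0109). Among inhibitors Timp2 was higher (log2 0.80), and Timp1 (log2 0.53) and Timp3 (log2 0.38) did not pass. Mmp13, the collagenase of hypertrophic cartilage and bone, had a log2 difference of -0.28 and did not pass. The number of higher genes was 1 without the arrays of 6 weeks, 2 without those of 4 weeks, and 1 (without older 6 weeks) to 7 with single arrays left out, and 3 without the young 6 weeks array.

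Smooth muscle and contractile genes were higher for 6 of 13 and lower for 1, with a median of 0.52. Tagln, an actin-binding protein of smooth muscle and myofibroblasts, read 2031, 1145, 761, 472, and 383 in young and 1428, 2813, 1999, 940, and 1050 in older rats (log2 1.29 ± 0.16, adjusted p = 0.00279). Cald1 (log2 0.97 ± 0.24) and Acta2 (log2 0.61) were also higher, and Tpm1 (log2 -0.76), which skeletal muscle expresses as well, was lower. Without the arrays of 1, 4, or 6 weeks 1 gene was higher, and without single arrays 1 (older 1 week) to 5 were, with 2 without the young or the older 6 weeks array. Among 34 growth factor and receptor genes 3 were higher and 0 were lower, against 4.52% and 4.56% of all probe sets. Igf1, a growth factor for bone, cartilage, and muscle, read 3933, 2339, 2169, 974, and 1077 in young and 2832, 7413, 5284, 2466, and 1777 in older rats (log2 1.25 ± 0.17, adjusted p = 0.00279). It had 3 further probe sets of the same sign, and none of these passed. Fgfr2, a fibroblast growth factor receptor, read 146, 67.0, 221, 209, and 47.4 in young and 265, 291, 462, 594, and 463 in older rats (log2 1.58 ± 0.37, adjusted p = 0.023). A second Fgfr2 probe set disagreed (log2 0.09 ± 0.28, adjusted p = 0.89). The Wnt receptor Fzd2 was higher at log2 0.73 ± 0.20. In this list 1 gene was higher without the young 1 or 6 weeks or the older 2 or 6 weeks array, or without the arrays of 4 or of 6 weeks. Among 18 endothelial and vascular genes 3 were higher and 0 were lower, namely the caveolae protein Cav1 (2.29-fold, adjusted p = 0.00651), Pecam1 (log2 0.69 ± 0.20), and Ace (log2 0.67 ± 0.19), and over all 5 times 4 of the 18 had older arrays wholly above the young ones, against 1.05% of all probe sets. Without any single array other than that of young rats at 2 weeks, 1 endothelial gene was higher, and without the arrays of 4 weeks 0 were.

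Among marrow cells, 2 neutrophil and 2 erythroid genes were lower at 1 to 6 weeks. All 6 tested neutrophil genes were lower at an unadjusted p below 0.05 over all 5 times (median -1.69), and their median difference was -2.08, 0.54, -2.70, -2.14, and -2.35 over the 5 times, above 0 at 1 week. RatNP-3b, a neutrophil defensin, read 7296, 2540, 3385, 10483, and 24471 in young and 1165, 2480, 219, 2954, and 4392 in older rats (log2 -2.07 ± 0.51, adjusted p = 0.0276). Defa5, annotated as a defensin of the same family, read 1302, 469, 612, 2997, and 5014 in young and 292, 528, 50.8, 551, and 970 in older rats (log2 -1.81 ± 0.40, adjusted p = 0.0172). The probe sets of related defensins can hybridize with the same transcript, so these are not independent. At 1 week the signals of both ages were close, and at the other 4 times the older signals were lower. Both calls were lost without the arrays of 4 or of 6 weeks, and the list had 0 calls without the young 4 weeks or the older 2, 4, or 6 weeks array and 1 without the young 6 weeks array. Of 13 erythroid genes, whose median was -0.47, -0.39, -1.70, 0.23, and -1.09 over the 5 times and so above 0 at 4 weeks, 2 were lower, both beta globins. Hbb read 10225, 11695, 25991, 25125, and 46547 in young and 5136, 3027, 5995, 24008, and 21893 in older rats (log2 -1.30 ± 0.31, adjusted p = 0.0225), and the list had 0 calls under quantile normalization, without the arrays of 1 or of 6 weeks, and without the young 1 week or the older 1, 2, or 6 weeks array, and 1 without the young 6 weeks array. The probe sets of the 2 beta globins can likewise hybridize with the same transcript. In intact bone the marrow lists stood the other way, with a median difference of 0.99 for neutrophil and 0.77 for erythroid genes.

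Of 11 interferon response genes 1 was higher and 1 was lower at 1 to 6 weeks, against 4.52% and 4.56% of all probe sets. The median was -0.03. The membrane protein Ifitm3 was higher (log2 0.83 ± 0.14, adjusted p = 0.0061). Rsad2, an antiviral protein, read 234, 340, 3844, 5134, and 8035 in young and 142, 111, 195, 4231, and 1884 in older rats (log2 -2.07 ± 0.57 at 1 to 6 weeks, adjusted p = 0.0419). At 2 weeks the young signal was far above its earlier level and the older one was not. A second Rsad2 probe set did not pass (log2 -1.15 ± 0.62, adjusted p = 0.263). The call of the first held in 9 of 22 alternatives and was lost without the young 1 or 6 weeks or the older 1, 2, or 6 weeks array. Nup210, a nuclear pore protein, was also lower (log2 -1.43 ± 0.30, adjusted p = 0.0139). Of 29 proliferation genes 3 were lower and 0 were higher, against 4.56% and 4.52% of all probe sets. The 3 were the tubulin regulator Stmn1 (log2 -0.96 ± 0.27), the topoisomerase Top2a (log2 -0.82 ± 0.22), and the histone H2az1 (log2 -0.82 ± 0.17). Single arrays left out gave 0 (young 4 weeks, older 2, 4, or 6 weeks) to 8 (young 1 week) lower genes and 1 without the young 2 or 6 weeks array.

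**Figure D4:**
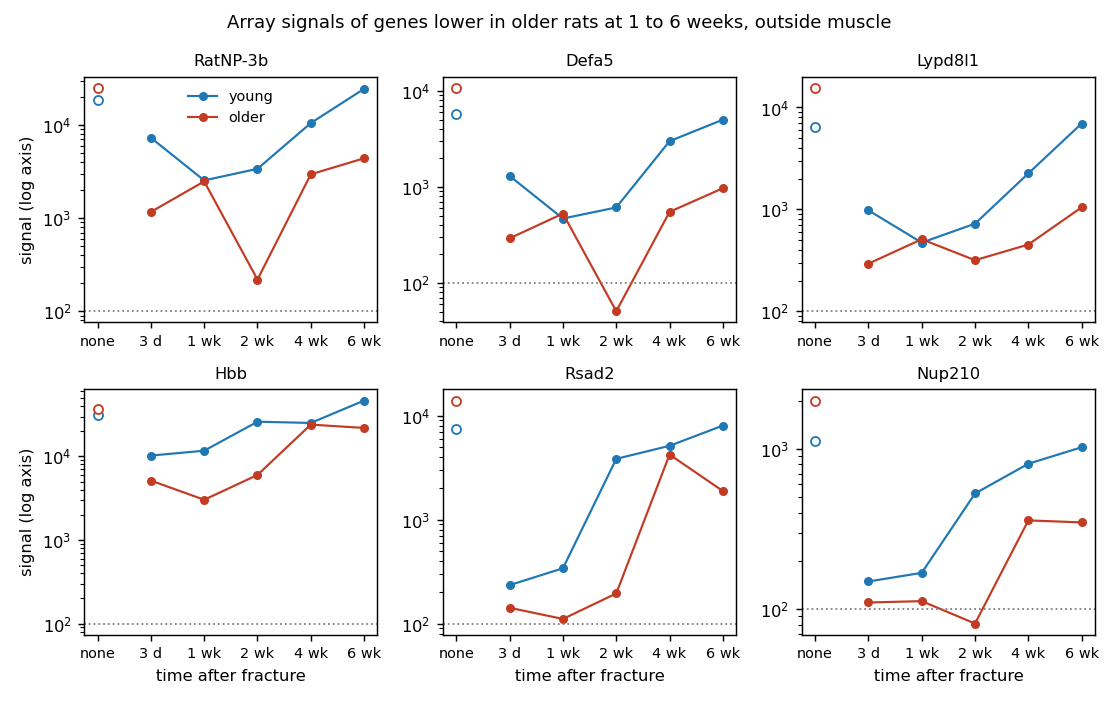
Array signal (log axis) against time after fracture for 6 genes that were lower in older rats at 1 to 6 weeks, with 1 array per point, young rats in blue, older rats in red, open circles for intact bone, and a dotted line at the floor of 100. At 2 and 6 weeks the older point lies below the young point in all 6 genes, and in intact bone it lies above.

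The study singled out nerve-related genes on arrays that include these, so their direction here is not independent evidence. Of 9 that it grouped as rising more in older rats, 6 were tested, and 5 were higher at 1 to 6 weeks. Thbs4, thrombospondin 4, a matrix protein of tendon, muscle, and synapses, read 1837, 1418, 1046, 1181, and 1188 in young and 1916, 4312, 2851, 1634, and 2628 in older rats (log2 1.17 ± 0.21, adjusted p = 0.00976). Spon1, the axon guidance protein F-spondin, read 345, 155, 251, 233, and 77.1 in young and 190, 869, 476, 503, and 424 in older rats (log2 1.65 ± 0.26, adjusted p = 0.00501). Chrna1, the acetylcholine receptor subunit of muscle (log2 1.12 ± 0.29), the complement protease C1s (log2 1.07 ± 0.31), and a probe set of no symbol (log2 1.48 ± 0.33) were the other 3. Camk2b had a log2 difference of 0.29 ± 0.18 and did not pass. Arrays or times left out gave 1 to 5 calls in this group, with 1 without the arrays of 1 week and 2 without the older 1 or 6 weeks array or those of 2 or of 4 weeks.

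Of 8 genes that the study grouped by a lasting fall in older rats, 6 were tested and 1 was lower at 1 to 6 weeks. The study used another measure, the return to levels before fracture, with examples tested at 4 and 6 weeks. The median difference of the 6 was -0.72 and -0.51 at these times and 1.36 in intact bone. Against intact bone 5 of the 6 departed downward at an unadjusted p below 0.05 (limma), against 372 of 4669 probe sets. By adjusted p 0 did. Lypd8l1, which the study called RoBo-1, read 978, 472, 724, 2252, and 6957 in young and 293, 509, 317, 452, and 1047 in older rats (log2 -1.53 ± 0.36 at 1 to 6 weeks, adjusted p = 0.0222). The intact signals were 6363 in young and 15425 in older rats. The call held in 13 of 22 alternatives and was lost without the young 4 weeks or the older 4 or 6 weeks array, and without the young 6 weeks array, which had the highest young signal and the low Gapdh ratio. The calmodulin-binding neuronal protein Nrgn (log2 -1.16 ± 0.42, adjusted p = 0.103) and the ligase Acsl6 (log2 -0.74 ± 0.23, adjusted p = 0.0688) did not pass, nor did Nnat (log2 0.29), the neuropeptide Npy (log2 0.07), or Sncg (log2 0.42). Of 7 genes grouped by a stronger rise in young rats, 3 were tested, and Nr4a3 (log2 0.29), Cdk17 (log2 0.14), and Ptprz1 (log2 0.14) did not pass at 1 to 6 weeks. The study compared its examples at 1 and 2 weeks only, on more arrays per age. Its plotted examples Cdk18 and the synaptic scaffolding molecule were too dim here to be tested.

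Other groups had few or no calls, to be set against 4.52% higher and 4.56% lower of all probe sets at 1 to 6 weeks. Ribosomal protein genes had a median of -0.11 at 1 to 6 weeks with 1 lower of 39, the muscle form Rpl3l (log2 -1.16 ± 0.28). Genes of T and NK cells (5 tested, median 0.00), of MHC class I (10 tested, -0.01), of B and plasma cells (4 tested, 0.02), of the mast cell (7 tested, -0.33), and of the osteoclast had 0 calls at 1 to 6 weeks by limma, and 0, 2, 1, 0, and 0 members had an unadjusted p below 0.05 in either direction, against 14.8% higher and 11.4% lower of all probe sets. Of 11 macrophage genes 1 was higher, Lgals3, galectin 3 (log2 1.18 ± 0.20), and of 20 inflammation genes 1, the monocyte attractant Ccl2 (log2 1.21 ± 0.22). Of 31 immediate early and stress genes 4 were higher, the transcription factors Klf6 (log2 1.12 ± 0.22), Junb (log2 0.76), and Fos (log2 0.63) and the kinase Sgk1 (log2 0.70), and the mitochondrial chaperone Hspd1 was lower (log2 -0.63). Of these 5 calls 0 were left without the older 6 weeks array, and 2 genes were higher and 0 lower without the young 6 weeks array. The calls of Lgals3 and Ccl2 were lost without the arrays of 4 weeks, and that of Ccl2 also without those of 1 or of 6 weeks.

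**Figure D5:**
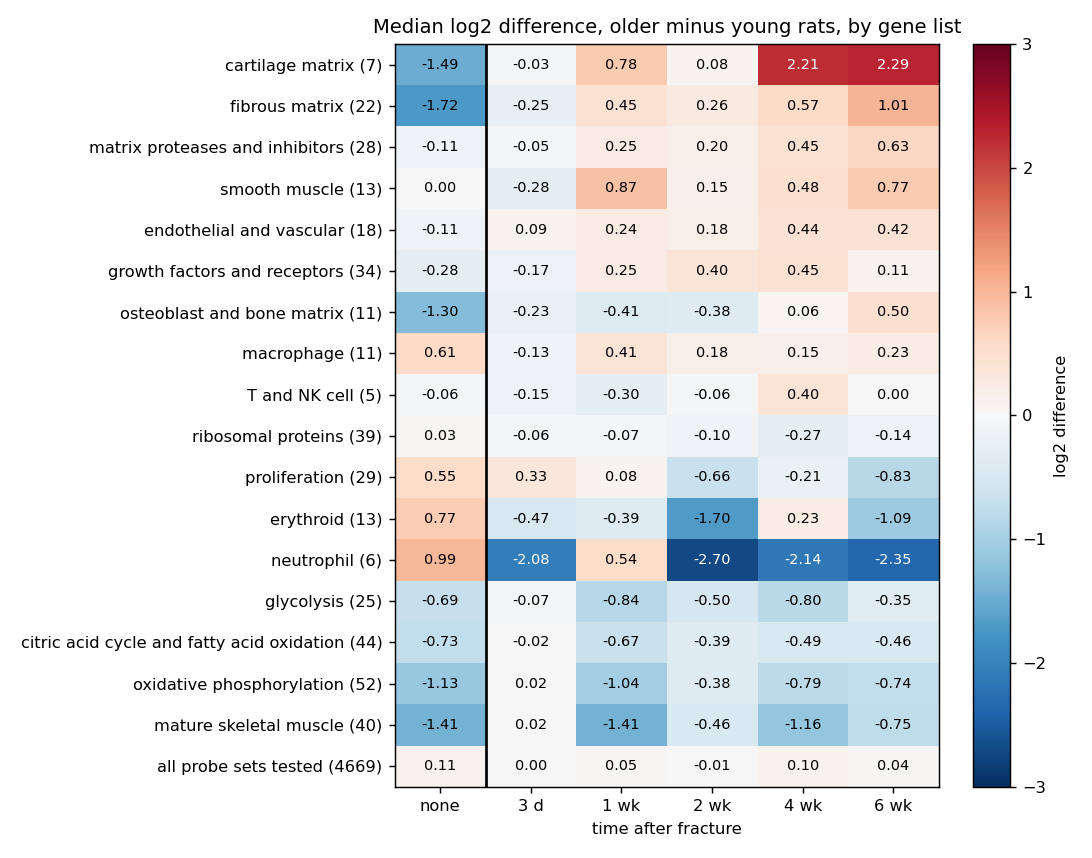
Median log2 difference of older minus young rats at each time after fracture and in intact bone (none) for 17 gene lists and for all probe sets tested, with the number of genes tested in brackets, red where older rats were higher and blue where they were lower. The muscle and energy lists lie below -0.3 at 1 to 6 weeks, the cartilage list is above 2 at 4 and 6 weeks, and the medians of all probe sets lie between -0.01 and 0.11.

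The last comparison asked whether the age difference after fracture departed from that in intact bone, which has 1 array per age. The departure was positive for 74 probe sets (1.58%) and negative for 45 (0.964%). The balance turned at a floor of 200, with 74 positive and 122 negative, and with no filter, with 77 and 204. In each of the 74 the intact older bone lay below the intact young bone, and in each of the 45 above it. Lox, by a different probe set from that above, read 1792 in the young and 94.9 in the older intact bone, and its departure was 5.24 ± 0.82 on the log2 scale (adjusted p = 0.00467). The older intact signals of Lox and of Actc1 lay below the floor of 100, and that of Dusp1 lay at about 100. These departures therefore depend on the floor. Over the alternatives they ranged from 4.24 to 5.58 for Lox, from 4.49 to 6.06 for Actc1, and from 2.72 to 3.92 for Dusp1. The collagen chaperone Serpinh1 read 3624 and 332 in intact bone, against means of 7479 ± 4649 and 9278 ± 3460 (SD, n = 5) after fracture (4.05 ± 0.62, adjusted p = 0.00467). Col5a2, a regulator of collagen fibril width, read 5073 and 518 (3.65 ± 0.47, adjusted p = 0.00226), the heart and fetal actin Actc1 4565 and 95.0 (5.49 ± 1.09, adjusted p = 0.0173), and the phosphatase Dusp1 753 and 100 (3.77 ± 0.63, adjusted p = 0.00749). In the other direction the leukocyte genes Spn, CD43 (-2.65 ± 0.63, adjusted p = 0.0417), and Prkcb, protein kinase C beta (-2.61 ± 0.54, adjusted p = 0.0203), the carcinoembryonic antigen family member Ceacam4 (-2.60 ± 0.63, adjusted p = 0.0445), Acap1 (-2.67 ± 0.59, adjusted p = 0.0302), and the proteasome subunit Psmb4 (-2.29 ± 0.41, adjusted p = 0.0108) were brighter in the older intact bone. Of the fibrous matrix list 12 of 22 departed upward and 0 downward, and of the muscle, oxidative phosphorylation, and glycolysis lists 0 did in either direction, with medians of 0.43, 0.53, and 0.23. All of these values rest on the single intact array of each age, whose spread was taken from the other arrays, and a fault of one array cannot be told apart from an age difference of intact bone.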

How the data were processed

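RNA of 18 segments of rat femur was hybridized to Affymetrix rat oligonucleotide arrays. The authors deposited intensities from Microarray Suite 5.0, having brought every array to an average signal of 500. No column lay outside the 18 samples. Of 8799 probe sets, 59 controls were left out, 7018 had 1 gene symbol, 308 several, and 1473 none, and 6994 symbols were updated through RefSeq gene identifiers. A floor of 100 was placed under the signals and log2 was taken. Tests covered the 4669 probe sets that reached 200 on 3 arrays or more.

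Ages were compared with limma 3.58.1 in R 4.3.3 (lmFit, eBayes with trend, two-sided) on the 15 arrays after fracture, adult rats included for the spread, with time as a term that pairs the arrays. Deviations of the young and older arrays of a time from their age's mean correlated over probe sets at r = 0.545, 0.288, 0.0591, 0.362, and 0.545. The highest correlation with an older array of another time was 0.552, 0.498, 0.079, 0.425, and 0.428, so the same time gave the best match for 1 of 5 young arrays. That term stands for shared time, not for shared rats. The comparison with intact bone used 18 arrays. Errors of log2 differences are SE.

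The named genes were probe sets passing over all 5 times with 1 symbol, a mean of at least 500 in the brighter age, and 1 sign at all times (15 and 15), up to 3 passing members of each list, 8 and 8 of late against early, 5 and 5 of the comparison with intact bone, and the nerve-related genes. The same rule was later applied to 1 to 6 weeks. Further list members, and those that did not pass, were named after their values were seen. A list's gene was read by its brightest probe set, in 37 lists and 3 nerve-related groups. The members and lists were chosen with earlier results of these data known. The steps were tested on simulated data. Precision is limited by the number of arrays. The study's other series of arrays were not used here. Alternatives were floors of 20 and 200, no filter or one at 500, quantile normalization, arrays brought to equal medians, 1 probe set per gene, robust moderation, fewer or more arrays, no time term, the plain two-sample test of the methods, and each array or time left out. Figures were drawn with Python 3.11.15.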

Additional observations from a re-analysis of the deposited data

Results flagged for a closer look

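Single arrays stood apart in 17 of 226 sets of 5 arrays (1 gene in 1 age, or a second probe set of it). The cutoff gives about 1 in 20 for independent arrays of a single condition, a rate that does not apply here. The 5 arrays are different times, and many of the genes were chosen by a test that left out the 3 days arrays. Each value here is the gap to the nearest array as a share of the range, on the log2 scale. The young 3 days array was lowest for the muscle genes Myh2 (0.79), Pvalb (0.83), Eno3 (0.844), Dhrs7c (0.743), Hspb6 (0.771), and Ldb3 (0.754) and highest for Mmp3 (0.793) and Myl4 (0.729). The young 6 weeks array was highest for Itgb4 (0.834) and lowest for C1r (0.712), and the young 2 weeks array was lowest for C1s (0.822). Among older rats the 3 days array was lowest for Col2a1 (0.724) and highest for H2az1 (0.74), the 1 week array highest for Plod1 (0.76) and Bhlhe41 (0.791), and the 6 weeks array highest for Ace (0.933) and Acap1 (1, with the other 4 signals at the floor). The part of RNA quality in the values of the young 6 weeks array was not tested.

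Age differences that departed between periods or from intact bone were drawn out by their tests. Col2a1 departed by 4.58 between late and early healing. From intact bone the departures were 5.49 for Actc1, 5.24 for Lox, 4.05 for Serpinh1, 3.77 for Dusp1, and 3.65 for Col5a2, and -2.67 for Acap1, -2.65 for Spn, -2.61 for Prkcb, -2.6 for Ceacam4, and -2.29 for Psmb4, all on the log2 scale and all resting on 1 intact array per age.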

How the results depend on the processing

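Of the passing results recomputed under the alternatives (7 over all 5 times, 88 at 1 to 6 weeks, 1 of late against early, and 10 against intact bone), none changed its direction, and further list members were not followed one by one. Over all 5 times, the 7 calls became 9 at a floor of 20, 0 at a floor of 200, 0 with no filter, 38 with a filter at 500, 17 with 1 probe set per gene, 0 with only the young and older arrays, 2 with all 18 arrays, and 5 under quantile normalization and under equal array medians, where 40% were higher in older rats against 57.1%. The ordinary two-sample test gave 0 after Benjamini-Hochberg adjustment, 441 at an unadjusted p below 0.05, and 52 below 0.005. Without the term that pairs arrays by time (no replicate block) 0 passed over all 5 times and 98 at 1 to 6 weeks. Single arrays or times left out gave 0 to 457 calls over all 5 times, the highest without the older 3 days array, and 185 passed without the young one. At 1 to 6 weeks the 424 calls became 276 at a floor of 200, 48 with no filter (36 of them shared), 227 with only 2 ages, and 50 to 511 with arrays or times left out. Late against early gave 2 at a floor of 20, 16 with no filter, 0 under quantile normalization, equal medians, robust moderation, or 2 ages, and 0 to 6 with arrays left out. A floor of 200 gave 1 call, which was not Col2a1. The comparison with intact bone gave 196 at a floor of 200, 281 with no filter, 59 with 1 probe set per gene, 32 with 2 ages, and 82 to 159 with arrays left out. The test of 1 to 6 weeks against 3 days gave 49 with no filter, 2 with a filter at 500 or robust moderation, and 0 to 10 with arrays left out. Apart from fewer arrays or probe sets tested, the cause of these shifts was not tested. The comparison of 1 to 6 weeks and its contrast with 3 days were chosen after seeing the data.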

Other observations

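Further genes stood among the largest differences at 1 to 6 weeks. Of 18 tested genes of adipocytes and lipid storage 3 were higher and 0 were lower, against 4.52% and 4.56% of all probe sets. Their median was 0.20, and 1 was higher without the young or the older 6 weeks array. The genes that follow were picked by the size of their difference, whether in this list or not. Scarb1, the receptor of high-density lipoprotein, read 1030, 248, 901, 178, and 382 in young and 1194, 1636, 1265, 1473, and 1009 in older rats (log2 1.91 ± 0.39, adjusted p = 0.0135), and its other 2 probe sets passed too. Scd, which makes monounsaturated fatty acids, read 345, 690, 405, 1629, and 638 in young and 451, 1392, 820, 4033, and 4119 in older rats and was higher at every time (log2 1.51 ± 0.28, adjusted p = 0.00976). Tnn, tenascin N, a matrix protein of periosteum, read 5600, 1892, 1024, 1378, and 809 in young and 4905, 9008, 4144, 1835, and 1937 in older rats (log2 1.49 ± 0.26, adjusted p = 0.00752). Nmrk2, a kinase of NAD synthesis in muscle, was lower (log2 -2.20 ± 0.48, adjusted p = 0.0167), with all 4 young signals at 1 to 6 weeks above all 4 older ones.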
